A study of Zea mays with 10 samples.

Results

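Auxin response factors (ARFs) and the Aux/IAA proteins that bind them were examined in maize shoot apices lacking normal *lbl1* function. Members were the genes that the deposited expression table itself names ARF or IAA followed by a number, without the 5 *ARF3* genes that tasiR-ARF small RNAs regulate. This rule found 4 of the 109874 listed genes, of which only 1665 carry a name in the table. All 4 are named ARF, and no gene is named IAA. They are *ARF1* (GRMZM2G395844), *ARF2* (GRMZM2G153233), *ARF5* (GRMZM5G808366) and *ARF31* (GRMZM2G023813). The genes of both families that a later RefSeq annotation (NAM-5.0) names are given after them as context.

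RNA was sequenced from 2 *lbl1* and 2 wild-type samples. The *lbl1* plants, labelled LBL1 -/-, carried *lbl1-rgd1*, a mutant allele of the gene for the SGS3-like protein needed to make trans-acting siRNAs, in families in which the allele had been crossed at least 3 times into the inbred B73. Both the *lbl1* and the wild-type samples are labelled with the B73 background, and the labels do not say how many plants made up a sample. Apices of both genotypes were dissected at an age of 2 weeks and comprised the meristem with at most 5 young leaf primordia.

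Auxin is sensed by F-box receptors that mark Aux/IAA proteins for degradation. ARFs bind auxin response elements in promoters, and as long as Aux/IAA proteins sit on them, TOPLESS-type co-repressors keep the target genes off. Some ARFs activate transcription once they are freed and others act as repressors. In the shoot apex this pathway sets where leaves arise, and ARF3 proteins specify the lower side of the leaf. The *ARF3* genes were left out by their identifiers, and no ARF transcript was searched for target sites here. The sequences below are shown as background. They are the tasiR-ARFs that pair with *ARF3* transcripts, written 5′ to 3′, with the run of 6 nt common to all 10 listed names in capitals.
aD7 (+): uUCUUGAccuuguaaggcucu
bD6 (+): UCUUGAccuugcaagaccuuu
eD6 (+): uUCUUGAucuugcaagacuuu
gD6 (+): uUCUUGAccuugcaagacuuu
All 4 are 21 nt long, and the 10 names stand for 7 distinct sequences. The run begins at base 1 or base 2 of each one.

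Each transcript level below is 1 RPKM value per genotype, a read number divided by transcript length and by the mapped reads of the library, which Cuffdiff computed over both samples of that genotype. Values of single samples are not in the table used here, so no SD or test accompanies any value, and no difference can be set against the spread between samples. The number of reads behind a value is also unknown, except that Cuffdiff ran its own test only on genes with at least 50 alignments. The lowest level of any such gene, in its higher genotype, was 1.71 RPKM. For the mutated gene, the *lbl1* transcript (GRMZM2G020187, chromosome 6, 17165362 to 17171793) measured 225.9 RPKM in *lbl1* and 301.4 RPKM in wild type. Its ratio of 0.750 lies between the quartiles of all genes and does not decide whether the labels are right. For the 24760 genes that reached 1 RPKM in each genotype, the median log2 ratio of *lbl1* over wild type was -0.10. In whole apices, fewer cells of a type and less RNA per cell cannot be told apart. Marker transcripts were also compared, as pooled values without a spread between samples. Of 10 *KNOX* genes, which mark the meristem and stem, 6 were found. Their summed level was 132.0 RPKM in *lbl1* and 84.0 RPKM in wild type, higher in *lbl1* for 5 of them, with *KNOX10* at 0 in both. Of 17 photosynthetic leaf markers 3 were found, with a sum of 67.6 RPKM in *lbl1* and 41.8 RPKM in wild type, both detected ones being higher in *lbl1*. Nearly all of it was *CAB1*, at 61.3 RPKM in *lbl1* and 40.5 RPKM in wild type. Of 8 markers of leaf polarity 3 were found, all lower in *lbl1*, with a sum of 53.2 RPKM in *lbl1* and 78.6 RPKM in wild type. Most of that sum was *rld2*, at 49.1 RPKM in *lbl1* and 67.6 RPKM in wild type. The other 2 were *mwp1*, at 3.84 RPKM in *lbl1* and 6.97 RPKM in wild type, and *kan1*, at 0.282 RPKM and 4.06 RPKM. Of all these markers only *LG3* and *PPDK1* were at least 2-fold higher in *lbl1*, and only *kan1* at least 2-fold lower. Among all genes with at least 1 RPKM in a genotype, 12.6% were that much higher and 12.9% that much lower. Lists of so few genes say little about tissue makeup. The part of tissue makeup in the ARF values was not tested.

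The 4 genes named ARF ranged from among the most to among the least abundant transcripts of the apex. None of the 3 with at least 1 RPKM in a genotype differed 2-fold. The top of the range rests on *ARF1* alone, which may not be an auxin response factor, as set out below. The next member, *ARF2*, was at 4.50 RPKM in *lbl1* and 6.27 RPKM in wild type. *ARF1* was by far the most abundant and was slightly higher in *lbl1*, whereas *ARF2* and *ARF5* were lower in *lbl1* and *ARF31* was close to absent from both genotypes. Over all 29929 genes with at least 1 RPKM in a genotype, 12.6% were at least 2-fold higher in *lbl1* and 12.9% at least 2-fold lower. A count of 0 of 3 in each direction is not far from such shares, and it says little about so few genes.

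**Figure D1:**
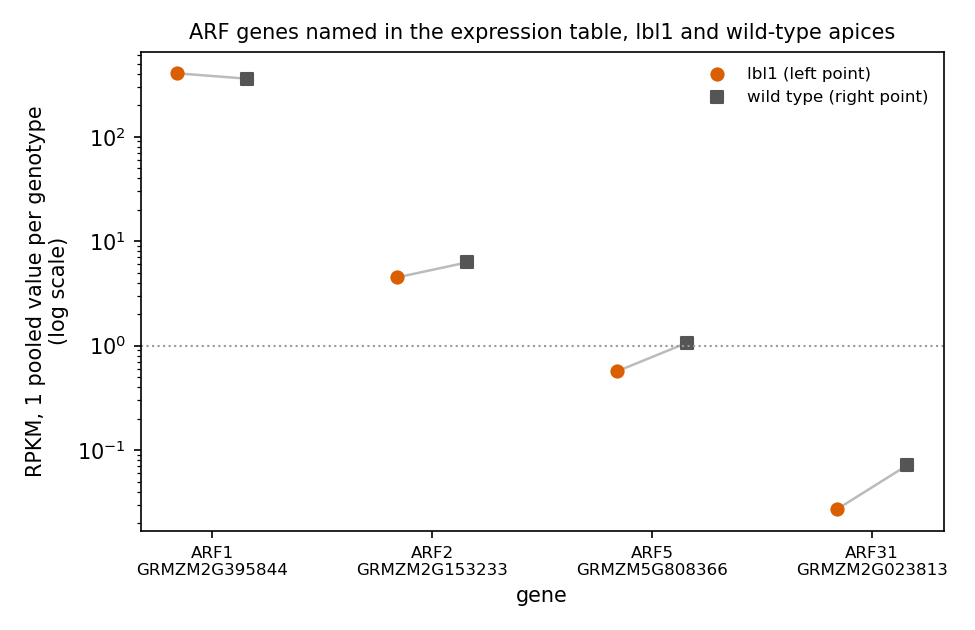
RPKM of the 4 ARF genes on a log scale, with 1 pooled value per genotype, *lbl1* as the left point and wild type as the right point. *ARF1* lies at 404.5 and 359.0 RPKM and the other 3 below 10 RPKM, each of these 3 with its *lbl1* point under its wild-type point. The dotted line is the filter of 1 RPKM.

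*ARF2* lies on chromosome 1 (230717190 to 230721599 on B73 RefGen_v2). Like *ARF5* and *ARF31*, it was taken as an auxin response factor gene from its name alone. Its transcript was at 4.50 RPKM in *lbl1* and 6.27 RPKM in wild type, 1.39-fold lower in *lbl1*. On the log2 scale the ratio was -0.48, and -0.38 once the median gene was set to a ratio of 1. Both levels stand near the middle of all expressed genes, here meaning genes above 0 RPKM. They lie above those of 50.6% of such genes in *lbl1* and 56.1% in wild type. This ranking includes genes under 1 RPKM, which the filter leaves out elsewhere. *ARF2* overlaps no other annotated locus. Of the members, it is the only one that both has a locus to itself and had enough reads for Cuffdiff's test.

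*ARF5* lies on chromosome 2 (25424201 to 25429000). Its level was 0.567 RPKM in *lbl1* and 1.07 RPKM in wild type, 1.88-fold lower in *lbl1*, which is the largest difference among the members that reached 1 RPKM. The log2 ratio was -0.91, or -0.81 relative to the median gene. Cuffdiff did not test it for want of reads, so a difference at *ARF5* was not detectable at this depth. It passed the filter through its wild-type value alone.

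*ARF31*, on chromosome 10 (149197770 to 149199623), was at 0.0271 RPKM in *lbl1* and 0.0715 RPKM in wild type. The ratio of 0.379 would be past 2-fold, but only 1.5% of expressed genes in *lbl1* and 6.31% in wild type had a lower level. The gene was not tested by Cuffdiff, and at such a level its ratio may rest on very few reads.

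*ARF1* (GRMZM2G395844, chromosome 5, 3038609 to 3058478) was at 404.5 RPKM in *lbl1* and 359.0 RPKM in wild type, a ratio of 1.13. Its log2 ratio was 0.17, or 0.27 relative to the median gene. In both genotypes it stood above 99.1% of expressed genes, and its level was 89.9 times that of *ARF2* in *lbl1* and 57.2 times in wild type. RPKM takes transcript length into account, so these levels can be set side by side. By comparison, *ARF2* was at 7.93 times the level of *ARF5* in *lbl1* and 5.87 times in wild type. The order of the 4 genes, *ARF1*, *ARF2*, *ARF5* and *ARF31*, was thus the same in both genotypes.

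The identity of this very abundant *ARF1* is uncertain. The RefSeq table lists GRMZM2G395844 under the name arf1 in lower case, while a different gene, GRMZM2G169820 on chromosome 1, bears ARF1 in capitals. The same 3 letters also abbreviate ADP-ribosylation factor, a small GTPase of membrane traffic found in every plant cell. Neither table gives a protein description, so the family of GRMZM2G395844 was not established here. Its locus has the same start and end as that of GRMZM2G095865, which was at 61.5 RPKM in *lbl1* and 93.4 RPKM in wild type. The 2 genes differed in opposite directions. The shared start and end may not be the span of each gene itself. Whether both are read from the same bases, and whether reads were divided between them, was not established. Nearly all of the summed level of the 4 members, 409.6 RPKM in *lbl1* and 366.4 RPKM in wild type, came from *ARF1*.

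The median log2 ratio of the 3 members with at least 1 RPKM was -0.48, that of *ARF2*. The same median over all genes that reached 1 RPKM was -0.09, with quartiles of -0.50 and 0.35, so that the ARF median lies just above the lower quartile. Without *ARF1* it was -0.70, from *ARF2* and *ARF5* alone. Among members with at least 5 RPKM in a genotype, *ARF1* and *ARF2*, it was -0.15. At a threshold of 1.5-fold, 1 of 3 ARF genes was lower in *lbl1*, namely *ARF5*, and none was higher, against 23.6% and 19.2% of all genes. *ARF5* passed the filter through its wild-type value alone, so this count does not support a difference of the members from other genes.

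The tasiR-ARF targets left out were *arf3a*, *arf3b*, *arf3c*, *arf3d* and *arf3e*, of which *arf3d* appears as *ARF12* in the table and would otherwise have met the rule. All 5 were higher in *lbl1*, 4 of them at least 2-fold, beside the 12.6% of all genes, and their sum was 406.9 RPKM in *lbl1* and 178.4 RPKM in wild type. Of these genes *arf3a* and *arf3b* lie on chromosome 6, the chromosome of *lbl1*, where the mutation and introgressed sequence cannot be told apart. The locus of *arf3d* overlaps another annotated locus. The ratios of the 5 genes, 1.23 to 3.06, all lay above the 1.13 of *ARF1*, the highest of the members. They did not all lie above those of other ARF genes. GRMZM2G078274, a RefSeq-named ARF gene that is none of these targets, had a ratio of 1.496, above the 1.23 of *arf3b*.

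Other genes that RefSeq names ARF give a wider view of the family. Of 14 such genes found in the table, 12 had at least 1 RPKM in a genotype. Among these, 5 were higher and 7 lower in *lbl1*, 1 lower and 0 higher by at least 2-fold, compared with the 12.9% and 12.6% of all genes. The median log2 ratio was -0.07 as deposited, close to the -0.09 of all genes, and it turned to 0.03 when the median gene was set to a ratio of 1.

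**Figure D2:**
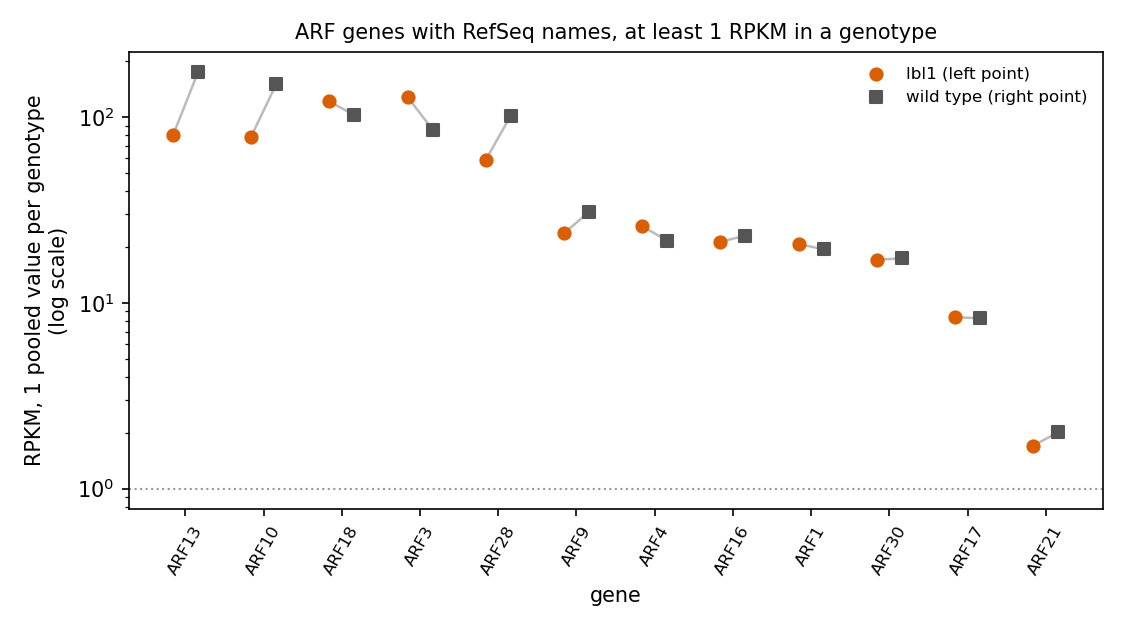
RPKM on a log scale of the 12 ARF genes named only by RefSeq that had at least 1 RPKM in a genotype, *lbl1* left and wild type right, ordered by mean level. *ARF13*, *ARF10* and *ARF28* show the steepest downward gap toward *lbl1*, and for the genes from *ARF9* on the points of a pair lie closer together.

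The 1 gene past 2-fold was *ARF13* (GRMZM2G378580, chromosome 4, 23523782 to 23529631), the ARF with the highest wild-type level in this list. It was at 79.6 RPKM in *lbl1* and 174.0 RPKM in wild type, a ratio of 0.457 and a log2 ratio of -1.13. *ARF10* (GRMZM2G338259, chromosome 3, 156481477 to 156487456) came close to that threshold, with 78.5 RPKM in *lbl1* and 150.1 RPKM in wild type. *ARF28* (GRMZM2G006042, chromosome 10, 13783146 to 13789160) was at 58.9 RPKM in *lbl1* and 101.7 RPKM in wild type, a ratio of 0.579, although Cuffdiff's own test failed for this gene. These 3 genes are among the 5 most abundant of the list, each above 50 RPKM in both genotypes.

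The other 2 of these 5 genes were higher in *lbl1*. A gene that RefSeq names *ARF3* (GRMZM2G078274, chromosome 2, 2266715 to 2274671), which is none of the 5 tasiR-ARF targets above, was at 128.1 RPKM in *lbl1* and 85.6 RPKM in wild type. Its ratio of 1.496 was the highest of the list. *ARF18* (GRMZM2G035405) was at 121.3 RPKM in *lbl1* and 102.3 RPKM in wild type, a ratio of 1.19. The less abundant *ARF4* (GRMZM2G034840) had the same ratio at 25.8 RPKM in *lbl1* and 21.6 RPKM in wild type.

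The remaining ARFs differed little. *ARF9* (GRMZM2G073750) was at 23.6 RPKM in *lbl1* and 30.9 RPKM in wild type, the largest gap among them. *ARF16*, the *ARF1* of chromosome 1 (GRMZM2G169820), *ARF30*, *ARF17* and *ARF21* had ratios from 0.849 to 1.07. The sign of *ARF30*, at 17.0 RPKM in *lbl1* and 17.4 RPKM in wild type, depends on the scaling. Both *ARF19* and *ARF33* stayed under 1 RPKM. *ARF19* was at 0.0958 RPKM in *lbl1* and 0.366 RPKM in wild type, and *ARF33* is listed at 0 in *lbl1* and at 0.0939 RPKM in wild type.

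The members from the expression table and the RefSeq-named ARFs together made 18 genes, 15 of them with at least 1 RPKM. In *lbl1* 6 of the 15 were higher and 9 lower. The median log2 ratio of the 15 was -0.11, close to the -0.09 of all genes with at least 1 RPKM in a genotype. The sum over all 18 was 995 RPKM in *lbl1* and 1103 RPKM in wild type. Without the *ARF1* of chromosome 5, whose family is in doubt, the sum was 590.1 RPKM in *lbl1* and 744.0 RPKM in wild type, a ratio of 0.793. Among the lower genes, *ARF13*, *ARF10* and *ARF28* had the largest differences in RPKM.

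For the Aux/IAA repressors, which the expression table names nowhere, RefSeq names of the form AUX or IAA with a number and *BIF4* were used. The RefSeq table describes no protein, and only some of these genes are known Aux/IAA genes by name. *AUX22* is *BIF1* (*Barren inflorescence1*), which with *BIF4* encodes an Aux/IAA protein required for the formation of inflorescence primordia, and *AUX34* is *rum1-like1*, a relative of the root regulator *rum1*. Of 19 identifiers, 18 had at least 1 RPKM in a genotype. Ratios were more widely spread than for the ARFs, with quartiles of the log2 ratio at -0.69 and 0.71 around a median of -0.16. In *lbl1* 7 were higher and 11 lower, of which 4 and 3 were past 2-fold, where 12.6% and 12.9% of all genes were. Among the 14 with at least 5 RPKM, 3 were at least 2-fold higher and 2 at least 2-fold lower, compared with 8.36% and 8.44% of all genes at that level. Of these 5 genes, *AUX10*, *AUX15* and *AUX36* reached 5 RPKM only in the genotype where they were higher, so the counts do not support a difference of the list from other genes.

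**Figure D3:**
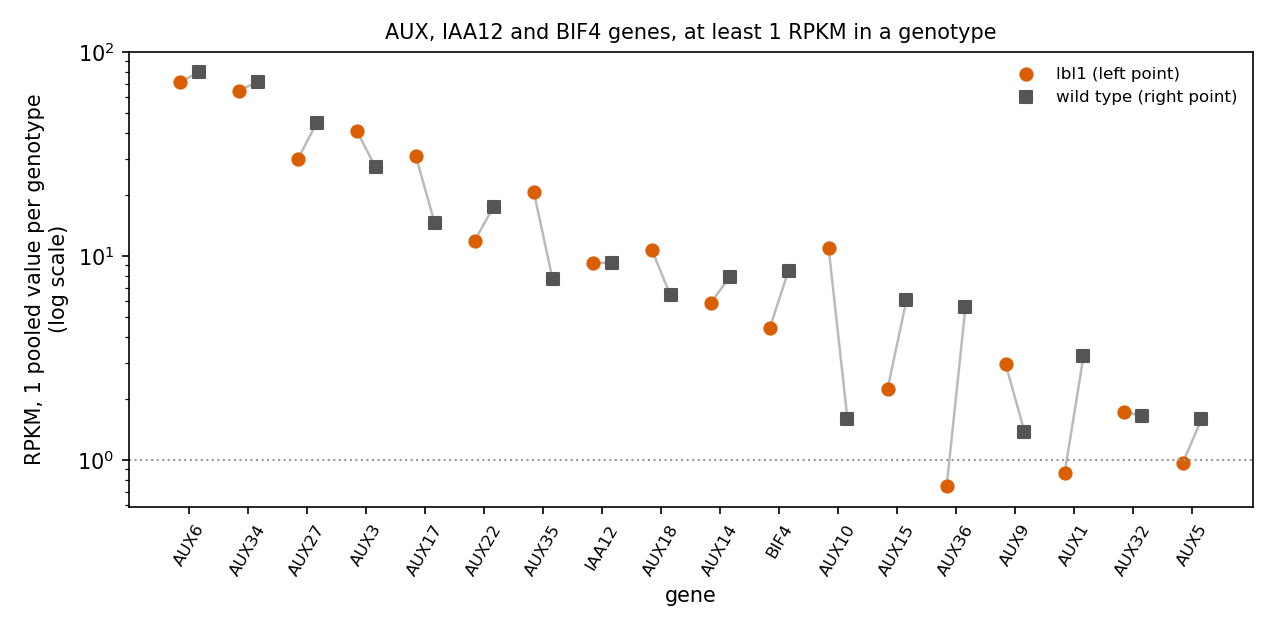
RPKM on a log scale of the 18 genes named *AUX*, *IAA12* or *BIF4* by RefSeq that had at least 1 RPKM in a genotype, *lbl1* left and wild type right, ordered by mean level. *AUX10*, *AUX15*, *AUX36* and *AUX1*, all with a mean under 7 RPKM, have the widest gaps.

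The gene with the highest ratio was *AUX10* (GRMZM2G057067, chromosome 3, 199305498 to 199307986), at 10.9 RPKM in *lbl1* and 1.58 RPKM in wild type, a ratio of 6.90. *AUX35* (GRMZM2G167794, chromosome 3, 118064610 to 118066326) was at 20.7 RPKM in *lbl1* and 7.72 RPKM in wild type, and *AUX17* (GRMZM2G079957, chromosome 1, 170535129 to 170537140) at 31.0 RPKM in *lbl1* and 14.5 RPKM in wild type. *AUX9* (GRMZM2G048131) was the lowest of these 4, at 2.95 RPKM in *lbl1* and 1.38 RPKM in wild type. The wild-type values of *AUX10* and *AUX9*, 1.58 and 1.38 RPKM, are low, so their ratios are less certain than those of *AUX35* and *AUX17*.

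In the other direction, *AUX36* (GRMZM2G359924, chromosome 8, 108568427 to 108570670) was 7.56-fold lower in *lbl1*, at 0.742 RPKM in *lbl1* and 5.61 RPKM in wild type. *AUX1* (GRMZM2G000158, chromosome 6, 79914748 to 79916501) was at 0.859 RPKM in *lbl1* and 3.22 RPKM in wild type. The *lbl1* values of *AUX36* and *AUX1* lie under 1 RPKM, so their ratios are uncertain, and both genes passed the filter through wild type alone. *AUX15* (GRMZM2G079200, chromosome 6, 103139630 to 103141327) was at 2.24 RPKM in *lbl1* and 6.09 RPKM in wild type. *AUX1*, *AUX15* and *BIF4* (GRMZM5G864847), at 4.41 RPKM in *lbl1* and 8.48 RPKM in wild type, are on chromosome 6, which also carries *lbl1*. An effect of the mutation and of sequence introgressed with the allele cannot be told apart there, and without chromosome 6 a single gene, *AUX36*, remained past 2-fold lower. None of the ARF members lies on that chromosome.

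The genes with the highest mean level, *AUX6* and *AUX34*, were close to level. *AUX6* (GRMZM2G035465) was at 70.9 RPKM in *lbl1* and 79.6 RPKM in wild type, and *AUX34* (GRMZM2G163848) at 64.6 RPKM in *lbl1* and 71.4 RPKM in wild type. The next in abundance differed in both directions, *AUX27* (GRMZM2G142768) with 29.7 RPKM in *lbl1* and 45.0 RPKM in wild type and *AUX3* (GRMZM2G004696) with 41.1 RPKM in *lbl1* and 27.2 RPKM in wild type. *AUX22* (GRMZM2G130953) was at 11.9 RPKM in *lbl1* and 17.5 RPKM in wild type. The only one named IAA, *IAA12* (GRMZM2G128421), had 9.22 RPKM in *lbl1* and 9.29 RPKM in wild type, and its sign depends on the scaling. *AUX18*, *AUX14*, *AUX32* and *AUX5* had ratios from 0.608 to 1.68. A second identifier of *AUX9*, GRMZM2G149449, is listed at 0 in both genotypes. The level summed over all 19 identifiers was nearly the same in both genotypes, 320.7 RPKM in *lbl1* and 316.1 RPKM in wild type.

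**Figure D4:**
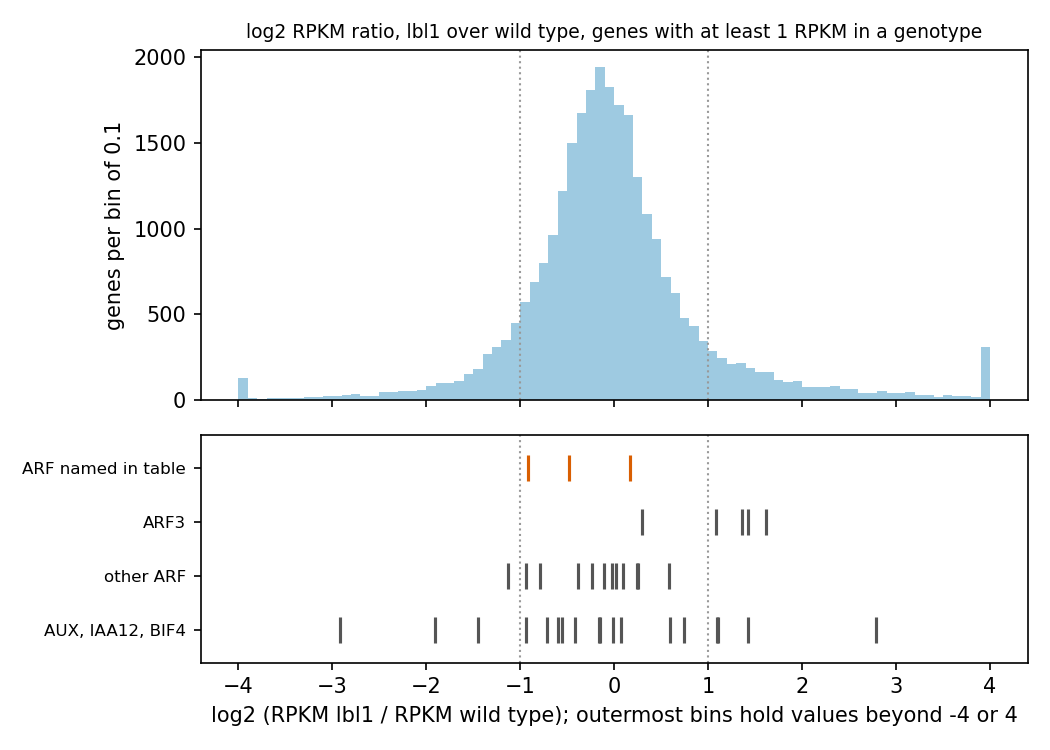
Log2 ratio of RPKM, *lbl1* over wild type, as deposited. The upper panel is a histogram of the genes that reached 1 RPKM in a genotype, in bins of 0.1 with values beyond -4 or 4 in the outermost bins, and the lower panel has 1 tick per gene for 4 lists, with dotted lines at 2-fold. The members run from -0.91 to 0.17, and the *ARF3* genes lie to the right of these, from 0.30 to 1.61. The other ARF genes reach 0.58, past the lowest *ARF3* gene, and the *AUX* list reaches from -2.92 to 2.79.

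Other steps of the auxin pathway are represented by few named genes. The co-repressor gene *rel2*, which encodes a TOPLESS-like protein, was at 60.5 RPKM in *lbl1* and 102.3 RPKM in wild type, a ratio of 0.592. No auxin receptor was found by name. Of 11 auxin transport genes found, 6 had at least 1 RPKM, and none of these was past 2-fold, where 12.6% of all genes were higher and 12.9% lower. With so few genes, a count of 0 is near those shares. The auxin influx carrier gene *aux1* (GRMZM2G129413) was at 88.0 RPKM in *lbl1* and 63.1 RPKM in wild type. Among the efflux carriers, *PIN1d* was at 41.7 RPKM in *lbl1* and 58.7 RPKM in wild type, and *PIN1a* was at 28.2 RPKM in *lbl1* and 53.7 RPKM in wild type. *PIN1b* differed the other way, with 10.2 RPKM in *lbl1* and 6.06 RPKM in wild type. The loci of *aux1*, *PIN1a* and *PIN1b* each overlap another annotated locus, and whether reads were divided there was not established.

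Of 9 genes for auxin synthesis found by name, 2 reached 1 RPKM in a genotype, and 4 were at 0 in both. Over all genes, 29929 of 109874 reached 1 RPKM in a genotype. A count of 2 of 9 says little about so few genes. *spi1*, a YUCCA-type monooxygenase gene, was at 1.69 RPKM in *lbl1* and 1.35 RPKM in wild type. *Yucca6*, whose locus overlaps another annotated locus, was at 1.19 RPKM in *lbl1* and 1.73 RPKM in wild type. Of the early auxin response genes, which ARFs can control, *GH3* was at 11.4 RPKM in *lbl1* and 10.2 RPKM in wild type. The 1 gene of that list past 2-fold was *saur1*, 1 of 2 with at least 1 RPKM, where 12.9% of all genes were that much lower. It was at 0.676 RPKM in *lbl1* and 1.40 RPKM in wild type, a level at which Cuffdiff made no test. It passed the filter through wild type alone, and a count from 2 genes says little. *saur1* lies on chromosome 6, where the mutation and introgressed sequence cannot be told apart.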

How the data were processed

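RNA-seq of vegetative apices of 2 *lbl1* and 2 wild-type maize samples was analysed. Small RNAs had been sequenced from 3 samples per genotype and were left aside here. The authors mapped reads to B73 RefGen_v2 with TopHat 1.2.0 and deposited RPKM values from Cuffdiff 1.0.3 with a minimum alignment count of 50. Each RPKM value in the authors' table is pooled over 2 samples of a genotype. Cuffdiff's status entry was used only to say whether its test had been run. The authors' own fold changes, test statistics, p-values and q-values were not used.

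Ratios are *lbl1* over wild type, with no pseudocount and no test. Lists were read from genes with at least 1 RPKM in a genotype and set beside all such genes, and 2-fold was the threshold. Whole reads were not recovered, since each value pools samples and depends on transcript length, so depth per sample is unknown and no interval can be given. Locus starts were counted from 0 in the table, and 1 was added. A later RefSeq table (NAM-5.0), from which no coordinates were taken, matched 18778 identifiers by synonym. It holds no protein descriptions, so the other ARF, AUX and pathway lists were drawn by symbol rather than by description as planned. The members and lists were chosen with earlier results of these data known. Every member was named, and from each further list up to 4 genes past 2-fold by size of the log2 ratio, or otherwise the 2 most abundant. Other genes named were chosen after their values were seen. Protein and promoter sequences were not used here, and tasiR-ARF sequences came from the study's supplementary tables.

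Alternatives were a pseudocount of 1 RPKM, no filter, a filter of 5 RPKM, a threshold of 1.5-fold, 2 scalings (median gene and 75th percentile), and lists without overlapping loci, without chromosome 6 or, chosen after the data were seen, without *ARF1* of chromosome 5. Applying them to the RefSeq-named lists was also decided after the data were seen. The calculations were tested on simulated data and used Python 3.11.15, numpy 2.4.6, pandas 2.3.3 and matplotlib 3.10.9.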

Additional observations from a re-analysis of the deposited data

How the results depend on the processing

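No paired analysis was possible because the table holds 1 value per genotype pooled over its samples, and for the same reason no replicate could be left out. With counts held to within 1.5 times and log2 medians to within 0.1 of the reported value, 58 values under the alternatives run stayed inside these limits, 13 moved past them and 1 reversed. Some of the 58 could not have moved. No ARF member lies on chromosome 6, and the only *AUX* identifier under 1 RPKM was at 0 in both genotypes. Leaving out that chromosome for the members, or the filter for the *AUX* list, repeated the main calculation. The number of ARF members at least 2-fold lower, 0 as reported, was 1 with no filter (*ARF31*) and 1 at 1.5-fold (*ARF5*). The ARF median log2 ratio, -0.48, was -0.70 with no filter, -0.15 at 5 RPKM or more, -0.38 with the median gene at a ratio of 1, and -0.70 without overlapping loci or without *ARF1*, which are the same calculation. It rests on 3 genes, and each alternative that adds or drops one shifts it. For the RefSeq-named ARFs, 3 genes in place of 1 were at least 2-fold lower with no filter, and 3 at 1.5-fold. Their median, -0.07, reversed to 0.033 with the median gene at a ratio of 1. For the *AUX* list, 1 gene in place of 3 was at least 2-fold lower without chromosome 6 and at 1.5-fold 6 were higher, in place of 4, and 6 lower. Its median, -0.16, was -0.055 with the median gene at a ratio of 1 and -0.010 without chromosome 6. Counts and the median for IAA members, and the difference between the IAA and ARF medians, could not be computed because no gene of the table is named IAA.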
